A study of Mus musculus with 5 samples.

Results

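Early lymphoid transcripts were examined in hematopoietic stem cells (HSCs), the cells at the top of the blood lineage tree. The genes are the 10 rows of the deposited expression table named Dntt, Il7r, Rag1, Rag2, Notch1, Ighm, Satb1, Ly6d, Ikzf1 and Cd52, of 55335 genes in all. They were picked by name, and no measured value entered the rule. The bone marrow came from mice of 3 weeks, and HSCs were sorted from it as lineage-negative Kit+ Sca-1+ CD150+ CD48- cells, where the lineage cocktail included CD3, NK1.1, Ter119, CD11b, Gr1 and B220. There were 3 wild-type libraries and 2 RankCre-ki libraries, the latter from mice carrying a Cre knock-in on 1 allele of Rank together with Csf1r fl/-, and the strain label was C57BL/6J for all 5. Per the study's methods, Rank-cre deletes floxed alleles in embryonic macrophages, these mice lack such macrophages and osteoclasts and have dense bone, and the Csf1r null allele is kept on C3H/HeJ. No label says that the libraries of a group came from separate animals, so the p-values measure only the spread between these libraries. Each library was made from few cells, and the last number of its name, read here as the cell number, was 90, 90 and 80 in wild-type replicates 1 to 3 and 80 and 86 in RankCre-ki replicates 1 and 2.

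Lymphoid priming is the low-level transcription of lymphoid genes in stem and multipotent progenitor cells that have not yet chosen a lineage. It is known to grow stronger as Flt3 rises in lymphoid-primed multipotent progenitors, and to culminate in the common lymphoid progenitor, which bears the interleukin-7 receptor and begins to transcribe the recombinase that cuts antigen receptor genes. Ikaros, the product of Ikzf1, is a zinc finger regulator required for this path and already acts in HSCs, whereas Dntt, Rag1, Rag2 and Ly6d are known as later marks.

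In these HSCs, Ikzf1 was the 1 gene of the 10 that reached at least 1 TPM (a length-corrected share of all transcripts of a library) in every library. Dntt and Ly6d were listed at 0 in all 5, Rag2 and Il7r stayed below 1 TPM throughout, and the other 5 genes were present in some libraries and at or near 0 in others. No member passed the test between RankCre-ki and wild-type HSCs. In bulk RNA, fewer cells that carry a transcript and less of it per cell cannot be told apart. The wide differences among libraries ran within the genotypes, and for Cd52 they separated the libraries by how they were named.

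Before the values, the sort and the labels were checked. HSC markers were present throughout: 18 of 22 listed HSC genes reached 1 TPM in all libraries, and Slamf1, which encodes CD150, ranged from 16.5 to 41.8 TPM. The library names form 2 series, with wild-type replicate 1 and RankCre-ki replicate 2 in series 1 and the other 3 libraries in series 2. The methods describe tagmentation with different kits in sets of this same make-up, so that the series may be preparation sets is an inference. The series 1 libraries are also those with Y-linked transcripts (Eif2s3y 41.6 and 62.5 TPM, at most 0.288 TPM elsewhere), although RankCre-ki replicate 2 is labelled female, so name series and sex cannot be told apart. Csf1r was listed at 2.39, 0 and 0.234 TPM in wild-type and at 17.5 and 6.46 TPM in RankCre-ki libraries, which runs against the loss of 1 allele. Cre acts in other cells here and nothing describes what RNA the null allele makes, so this gene does not check the genotypes, which are given below as labelled. Genes detected at 1 TPM numbered 9021 to 11084 in wild-type and 12801 to 16386 in RankCre-ki libraries, and mitochondrially encoded transcripts took 14.7% to 21.02% and 8.21% to 10.7% of the TPM. The part of these library differences in the results below was not tested.

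Ikzf1 (ENSMUSG00000018654; chr11:11685003-11772926, plus strand, GRCm38) measured 15.9, 11.9 and 26.6 TPM in wild-type and 23.8 and 29.8 TPM in RankCre-ki HSCs. It was an ordinary, steadily detected message, at the 76.4th to 84.4th percentile of the 21899 protein-coding genes of its library. The group means were 18.1 ± 7.58 TPM (SD, n = 3) and 26.8 ± 4.21 TPM (SD, n = 2). Wild-type replicate 3 lay between the RankCre-ki libraries, so the groups overlapped. The difference on the log2(TPM + 1) scale was 0.60 ± 0.80 (SE; 95% interval -1.24 to 2.44), with an adjusted p of 0.982 in limma's moderated test over all 13981 genes that reached 1 TPM in at least 2 libraries.

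Satb1 (ENSMUSG00000023927), which encodes a chromatin organizer known to favour lymphoid output from HSCs, was uneven. It measured 0.0447, 1.04 and 5.50 TPM in wild-type and 0.0920 and 5.01 TPM in RankCre-ki libraries, so each genotype held both a library near 0 and a library near 5 TPM. The log2 difference between genotypes was 0.09 ± 1.18 (SE; adjusted p = 0.999 in limma). Within name series 1 the RankCre-ki library was 2.53 higher on the log2(TPM + 1) scale, and within series 2 its difference from the mean of the wild-type libraries was -1.74. Each of these rests on 1 RankCre-ki library, and neither was tested.

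Notch1 (ENSMUSG00000026923), the receptor whose signal directs progenitors into the T lineage, was low. Its levels were 2.25, 0.0388 and 1.59 TPM in wild-type and 1.16 and 0.885 TPM in RankCre-ki HSCs. The RankCre-ki values fell inside the wild-type range. A transcript of the opposite strand, 0610009E02Rik, shares 1068 nt with Notch1 exons (7.50%) and was listed at 6.92, 0 and 3.16 TPM and at 3.32 and 3.46 TPM, with its 0 in the library that was lowest for Notch1. The log2 difference was -0.03 ± 0.81 (SE; adjusted p = 0.999 in limma; 95% interval -1.89 to 1.83). Quantile normalization put both RankCre-ki libraries below the wild-type libraries (log2 difference -1.19), still with no call.

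Il7r (ENSMUSG00000003882), the alpha chain that gives the interleukin-7 receptor its ligand, was just above 0 in every library: 0.366, 0.0424 and 0.0681 TPM in wild-type and 0.0298 and 0.645 TPM in RankCre-ki. The highest value came from a RankCre-ki library and the lowest from the other. Il7r did not reach 1 TPM anywhere and was therefore outside the main test, and without the filter its log2 difference was 0.18 ± 0.26 (SE; adjusted p = 0.805 in limma).

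The recombinase genes were also near 0. Rag2 measured 0.00605, 0 and 0.707 TPM in wild-type and 0.186 and 0.821 TPM in RankCre-ki libraries. Rag1 had 1.05 TPM in wild-type replicate 1 and was listed at 0 in the other 4 libraries, so that the 1 library with Rag1 was nearly without Rag2. The RAG1 and RAG2 proteins work as a complex that cuts DNA beside antigen receptor segments, and their genes lie tail to tail on chromosome 2 (Rag2 at chr2:101624718-101632529 on the plus strand, Rag1 at chr2:101638282-101649501 on the minus strand, GRCm38), 5752 bp apart. Unfiltered log2 differences were 0.30 ± 0.38 (SE; adjusted p = 0.773 in limma) for Rag2 and -0.35 ± 0.35 (SE; adjusted p = 0.748) for Rag1. Between them lies B230118H07Rik, which shares 80 nt of annotated exon with Rag1 and 208 nt with Rag2 and was itself listed at 7.89 to 113 TPM, the lowest in RankCre-ki replicate 2. It is not stated whether counting used strand, so fractions of a TPM of Rag1 or Rag2 are uncertain. Dntt (ENSMUSG00000025014; chr19:41029275-41059525, plus strand), which encodes the terminal transferase that adds bases at the joints RAG leaves, was listed at 0 in all 5 libraries.

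Ighm (ENSMUSG00000076617), the constant region of the mu heavy chain, was listed at 0, 0 and 1.93 TPM in wild-type and at 3.87 and 0 TPM in RankCre-ki HSCs. Both libraries with signal belonged to name series 2. The log2 difference between genotypes was 0.62 ± 0.88 (SE; adjusted p = 0.982 in limma), and that of series 1 minus series 2, with genotype in the model, was -1.42 ± 0.63 (SE; adjusted p = 0.299). Ly6d (ENSMUSG00000034634; chr15:74762056-74763620, minus strand), a GPI-anchored surface protein that marks B-biased lymphoid progenitors, was listed at 0 in all 5 libraries.

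Cd52 (ENSMUSG00000000682; chr4:134082448-134095082, minus strand, GRCm38), a short GPI-anchored glycoprotein of lymphocytes, followed the library names. It was listed at 27.3, 0 and 0 TPM in wild-type and at 0 and 25.6 TPM in RankCre-ki libraries. The 2 libraries with Cd52 were the series 1 libraries, 1 of each genotype, and in these it stood at the 86.5th and 82.7th percentile of protein-coding genes. The genotype difference was not called (log2 0.76 ± 2.01, SE; adjusted p = 0.992 in limma), and within series 1 it was -0.09. The difference of series 1 minus series 2, with genotype in the model, was 4.78 ± 0.87 (SE; 95% interval 2.58 to 6.99; adjusted p = 0.0816). This contrast was read after the values had been seen, and 658 of 13981 genes passed it (4.71%) at the limits used for genotype. The call was lost without wild-type replicate 2 (adjusted p = 0.229), wild-type replicate 3 (adjusted p = 0.298) or RankCre-ki replicate 1 (adjusted p = 0.139), and under median-ratio scaling (adjusted p = 0.102). Cd52 was among 88 genes, 12 of them protein-coding, with at least 5 TPM in both series 1 libraries and 0 in all series 2 libraries, whereas 7 genes had the opposite pattern. Name series and sex cannot be told apart in this pattern. The longest Cd52 transcript has 514 nt in 2 exons, and Crybg2 on the opposite strand shares 172 nt with its exons (14.5%) and was listed at 1.19, 12.8, 0.0288, 2.68 and 4.65 TPM, with no such split.

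**Figure D1:**
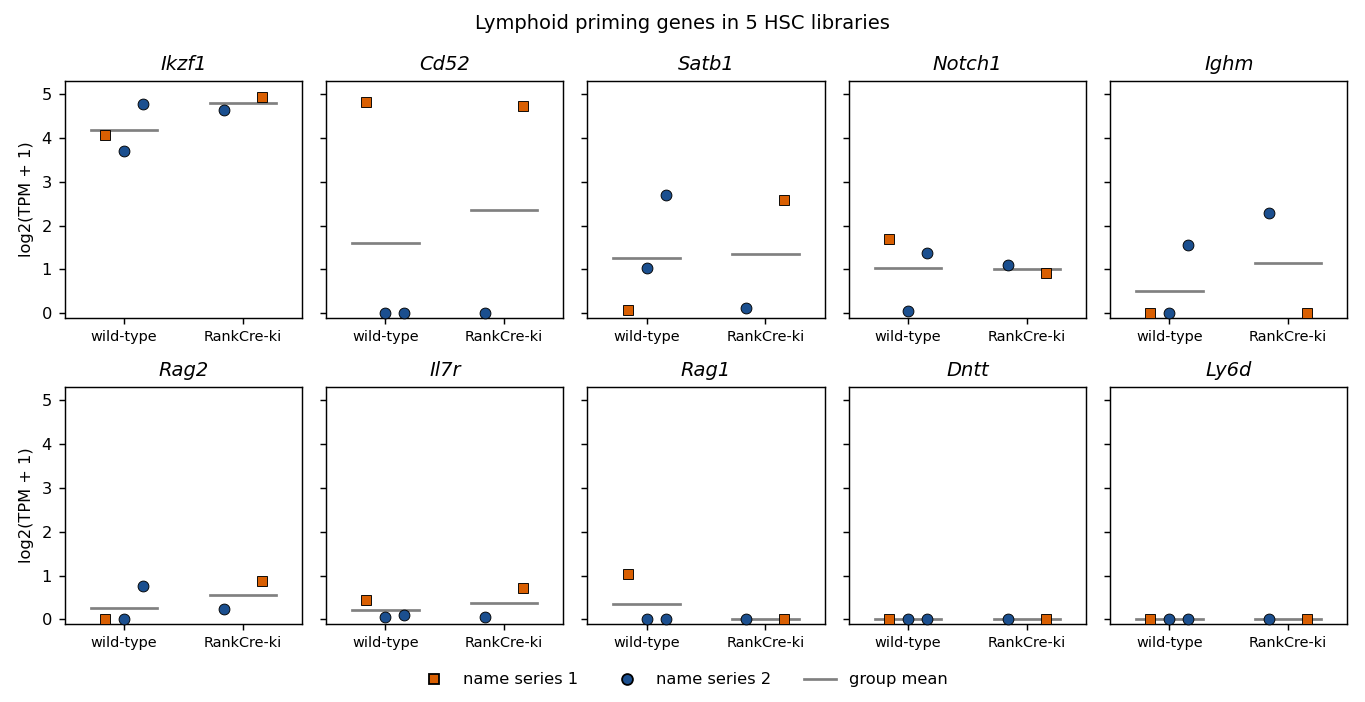
Levels of the 10 lymphoid priming genes as log2(TPM + 1) in each of 5 HSC libraries by genotype, with orange squares for name series 1, blue circles for name series 2 and a grey line for the group mean. Ikzf1 is high in every library, Cd52 is near 4.8 in the 2 series 1 libraries and at 0 in the other 3, and Dntt and Ly6d are at 0 throughout.

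Ordered by the mean over 5 libraries, the levels ran from Ikzf1 (21.6 TPM) through Cd52 (10.6), Satb1 (2.34), Notch1 (1.18), Ighm (1.16), Rag2 (0.344), Il7r (0.230) and Rag1 (0.210) to Dntt and Ly6d at 0 TPM. The library ranges of every pair of neighbours in this order overlapped or, for the last pair, were the same. Ikzf1 exceeded Cd52 in 4 libraries and fell below it in wild-type replicate 1. Against the other 8 genes its lowest library, at 11.9 TPM, was above their highest, the 5.50 TPM of Satb1. Of the summed TPM of all 10 members, Ikzf1 took 33.9%, 91.4% and 73.1% in wild-type and 81.7% and 47.5% in RankCre-ki libraries, with the low shares in the 2 libraries that held Cd52. From 2 to 4 members reached 1 TPM in a library and 4 to 7 were above 0.

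Promoter sequences of the steady gene and of the sparse genes were compared. Windows from 250 bases before to 50 after a RefSeq start (GRCm38.p6) were at hand for 7 members and are shown for Ikzf1, present in every library, and for the recombination genes Rag1, Rag2 and Dntt. All run 5′ to 3′ on the gene's strand, and capitals mark the CG dinucleotide, which reads the same on both strands. They span chr11:11685675-11685974 (Ikzf1, plus), chr2:101649483-101649782 (Rag1, minus), chr2:101624462-101624761 (Rag2, plus) and chr19:41029025-41029324 (Dntt, plus).
Ikzf1: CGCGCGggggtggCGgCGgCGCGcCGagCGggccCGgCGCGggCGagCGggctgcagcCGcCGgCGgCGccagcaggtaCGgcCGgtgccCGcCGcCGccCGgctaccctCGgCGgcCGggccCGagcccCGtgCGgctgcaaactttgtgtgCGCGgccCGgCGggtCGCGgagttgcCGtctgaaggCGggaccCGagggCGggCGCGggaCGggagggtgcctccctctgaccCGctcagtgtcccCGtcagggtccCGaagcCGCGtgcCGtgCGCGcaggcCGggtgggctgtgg
Rag1: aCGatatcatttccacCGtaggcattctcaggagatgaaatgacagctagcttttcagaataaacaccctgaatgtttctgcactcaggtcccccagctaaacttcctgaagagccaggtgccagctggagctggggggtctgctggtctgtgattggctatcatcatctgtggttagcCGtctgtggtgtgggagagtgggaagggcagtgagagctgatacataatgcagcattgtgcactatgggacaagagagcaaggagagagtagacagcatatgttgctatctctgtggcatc
Rag2: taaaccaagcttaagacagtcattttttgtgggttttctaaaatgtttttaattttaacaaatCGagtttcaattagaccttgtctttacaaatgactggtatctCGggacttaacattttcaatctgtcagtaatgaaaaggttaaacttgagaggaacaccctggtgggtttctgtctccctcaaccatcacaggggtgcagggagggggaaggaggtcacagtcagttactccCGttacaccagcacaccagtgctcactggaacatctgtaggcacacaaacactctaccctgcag
Dntt: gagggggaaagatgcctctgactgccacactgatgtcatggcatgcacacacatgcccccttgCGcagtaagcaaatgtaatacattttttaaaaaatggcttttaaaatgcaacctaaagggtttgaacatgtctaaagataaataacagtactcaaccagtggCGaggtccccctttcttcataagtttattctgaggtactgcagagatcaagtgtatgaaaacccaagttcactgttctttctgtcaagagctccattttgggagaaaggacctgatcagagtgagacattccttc

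The Ikzf1 window holds 52 CG at 81.3% G and C, while those of Rag1, Rag2 and Dntt hold 3, 3 and 2. Relative to the number expected from base composition, the observed CG ratio was 1.06 for Ikzf1, 0.165 for Rag1, 0.216 for Rag2 and 0.149 for Dntt. Il7r had 1 CG and a ratio of 0.0647, Notch1 a ratio of 0.660, and Satb1, with 5 windows, a highest ratio of 1.06. A second Ikzf1 start has a ratio of 0.111, and the data do not say which start was used. Of all 32851 windows 94.6% hold at least 1 CG, with a median of 7. Among 8704 protein-coding genes with a ratio of at least 0.6, 41.8% reached 1 TPM in all 5 libraries and 6.80% were at 0 in all. Among the 7883 genes below 0.6 the shares were 10.4% and 33.9%. None of the 4 members below 0.6 reached 1 TPM in all libraries, and of the 3 above it Ikzf1 was steady while Satb1 and Notch1 were not. This is a description of letters and levels across genes, which share their libraries, and it says nothing of the factors that bind there.

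**Figure D2:**
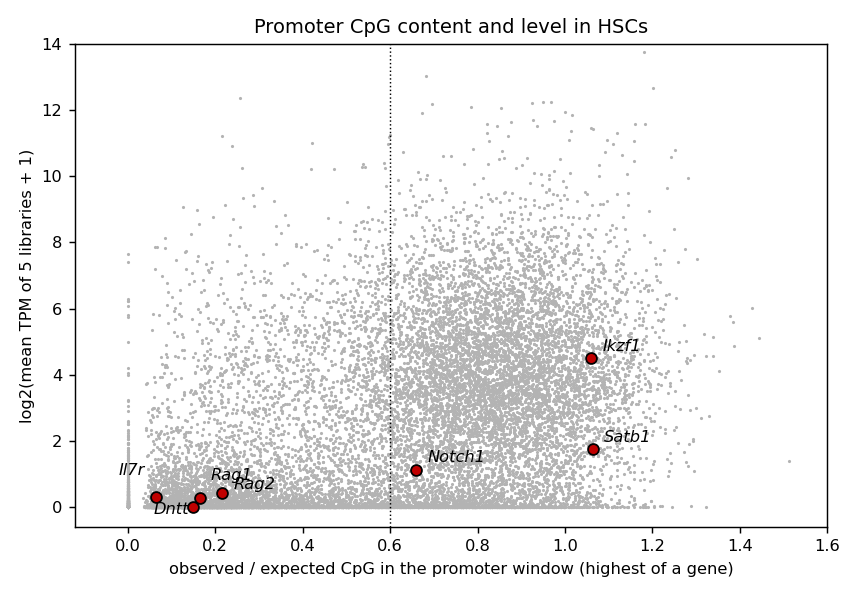
Observed over expected CG in the 300-base promoter window (the highest of a gene's windows, horizontal) against log2(mean TPM of 5 libraries + 1) for protein-coding genes (grey) and the 7 members with a window (red); the dotted line is at 0.6. Ikzf1 lies at high ratio and high level, Satb1 and Notch1 at 0.6 or above with low levels, and Il7r, Dntt, Rag1 and Rag2 at low ratio and near 0.

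The question of the design is whether HSCs of mice without embryonic macrophages differ from wild-type HSCs. Of the 10 members 5 were tested (Ikzf1, Cd52, Satb1, Notch1, Ighm), and 0 passed the limits of the study, which are an adjusted p no higher than 0.1 together with a log2 fold change beyond 2 in either direction. The background was the same, since 0 of 13981 genes passed (0.0%), with a smallest adjusted p of 0.521 in limma. The study applied its limits in a count-based test and reported genes past them, most of them higher in RankCre-ki HSCs. The 0 here belongs to limma on log2(TPM + 1), an unlike test. None of the 5 members had an unadjusted p under 0.05, against 886 genes higher (6.34%) and 74 lower (0.529%) in RankCre-ki libraries. For no member did both RankCre-ki libraries lie above, or both below, all wild-type libraries, where 18.8% of all tested genes had the first pattern and 3.71% the second. The log2 difference was above 0 for 4 of the 5 (Satb1 falls below 0 under median-ratio scaling and quantile normalization), with a median of 0.60, against 0.52 for all genes. Median-ratio scaling brought the median of all genes to 0.16 and quantile normalization to -0.09.

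**Figure D3:**
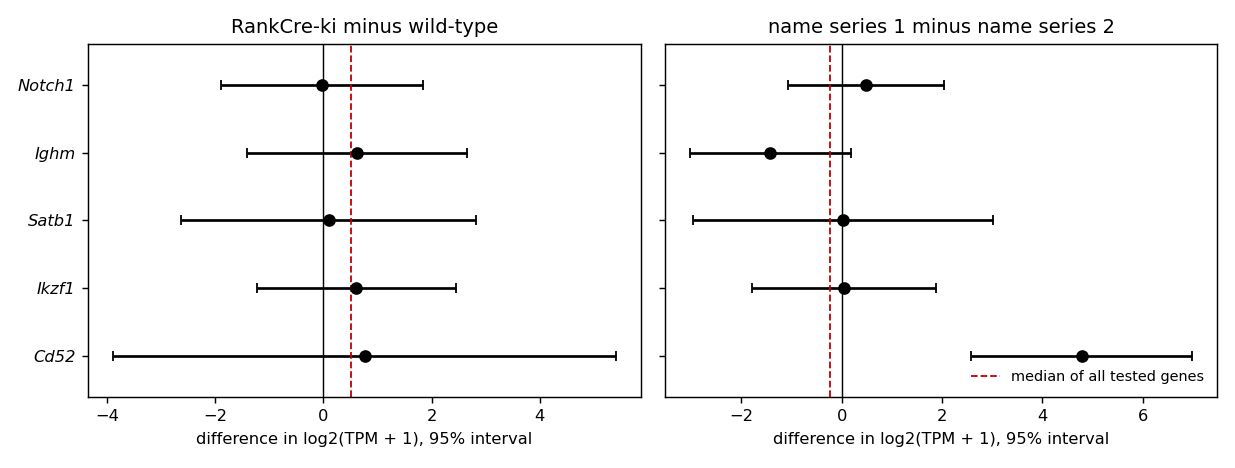
Differences in log2(TPM + 1) with 95% intervals from limma for the 5 tested members, RankCre-ki minus wild-type (left) and name series 1 minus name series 2 with genotype in the model (right), and the median of all tested genes as a dashed red line. All 5 intervals on the left cross 0, and on the right that of Cd52 (2.58 to 6.99) lies above 0.

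Between the name series, both series 1 libraries exceeded all series 2 libraries for Cd52 and Il7r, the latter at under 1 TPM, and for no member were both below. Of all tested genes 17.1% had the first pattern and 15.9% the second.

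How many of the genes that work with the members were present differed by list. For the interleukin-7 receptor, 10 of 14 listed signalling genes reached 1 TPM in every library and none was at 0 in all. Il2rg, the common gamma chain that pairs with the Il7r product, measured 222, 646 and 576 TPM in wild-type and 241 and 196 TPM in RankCre-ki HSCs. The highest level of the alpha chain was 0.645 TPM. Jak1, the kinase bound by the alpha chain, measured 19.3, 46.7 and 50.3 TPM and 62.8 and 42.6 TPM. Crlf2, which joins the alpha chain in the receptor for TSLP, was listed at 0, 0.0664 and 5.65 TPM in wild-type and at 11.5 and 24.8 TPM in RankCre-ki libraries, which do not overlap. No gene of this list passed the test (14 tested), 2 lay above in both RankCre-ki libraries (Crlf2 and Jak3; 18.8% of all tested genes did), and the median log2 difference was 0.31 below that of all genes (-0.31).

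For V(D)J recombination the listed partners ranged from abundant to near 0. Hmgb1, the DNA-bending protein that helps RAG cut, was among the abundant messages at 746, 1239 and 1222 TPM in wild-type and 1278 and 957 TPM in RankCre-ki HSCs. Xrcc6, which encodes the Ku70 subunit that holds broken ends, measured 10.8, 92.0 and 147 TPM and 75.1 and 61.0 TPM. These belong to general DNA repair and chromatin, and 8 of 13 listed partners reached 1 TPM in all libraries. Prkdc and Lig4, named after their values were seen, were low. Prkdc was listed at 0.00782, 0.00252 and 2.70 TPM in wild-type and at 0.947 and 0.967 TPM in RankCre-ki libraries. Lig4 was listed at 0.134, 0 and 0 TPM and at 1.49 and 0 TPM. Polm, a polymerase related to the Dntt product that acts at the joints, was listed at 0 in each wild-type library and reached 5.44 and 1.01 TPM in RankCre-ki HSCs (adjusted p = 0.580 in limma, no call). No partner passed the test (11 tested), and the list's median was 0.26 above that of all genes.

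In the Notch pathway the receptor was low, and 9 of 28 listed genes reached 1 TPM in every library. Psenen, a subunit of the gamma-secretase that releases the Notch intracellular domain, measured 415, 206 and 129 TPM in wild-type and 144 and 123 TPM in RankCre-ki libraries, and Ncstn, another subunit, 25.4, 24.9 and 64.6 TPM and 50.4 and 28.6 TPM. The genotypes overlapped for both. Mfng, a glycosyltransferase that tunes which ligands Notch answers to, measured 38.9, 7.04 and 15.4 TPM and 76.8 and 71.0 TPM, a log2 difference of 2.10 ± 0.84 (SE; adjusted p = 0.658 in limma). Maml1, a coactivator of the Notch transcription complex, was listed at 0.158, 0.00741 and 0 TPM and at 2.78 and 2.32 TPM (adjusted p = 0.532). Of 28 listed genes 19 were tested and 0 passed, 8 were higher in both RankCre-ki libraries and 1 was lower, against 18.8% and 3.71% of all tested genes (the lower one was Hes1, a target of Notch named after its values were seen, at 2.19, 1.97 and 9.30 TPM and 0.661 and 0 TPM), and the median was 0.59 above that of all genes.

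Ikaros and Satb1 act with the NuRD complex, which removes histone acetylation and slides nucleosomes, and 11 of 16 listed partners reached 1 TPM in every library. Rbbp7, a histone-binding subunit, measured 266, 696 and 802 TPM in wild-type and 640 and 254 TPM in RankCre-ki HSCs. The deacetylase gene Hdac1 measured 106, 100.2 and 144 TPM and 199.9 and 93.6 TPM. The genotypes overlapped for both. No gene passed the test (14 tested), and the median was 0.30 below that of all genes (-0.30).

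For Ighm, 3 of 15 listed partners reached 1 TPM in every library. Cd79b, which encodes a signalling chain of the B cell receptor, measured 37.6, 75.0 and 147 TPM in wild-type and 69.3 and 30.8 TPM in RankCre-ki libraries. Btk and Lyn, kinases shared with myeloid cells, measured at least 8.44 and 10.3 TPM. By contrast 7 of 15 listed genes were at 0 in all libraries, and these, named after their values were seen, are Cd79a (the other signalling chain), Vpreb2, Vpreb3 and Igll1 (surrogate light chain or related genes) and the light chain constant regions Igkc, Iglc1 and Iglc2. Vpreb1, also named after the fact, had 10.9 TPM in wild-type replicate 3 and was at 0 elsewhere. Of 4 genes tested none passed.

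**Figure D4:**
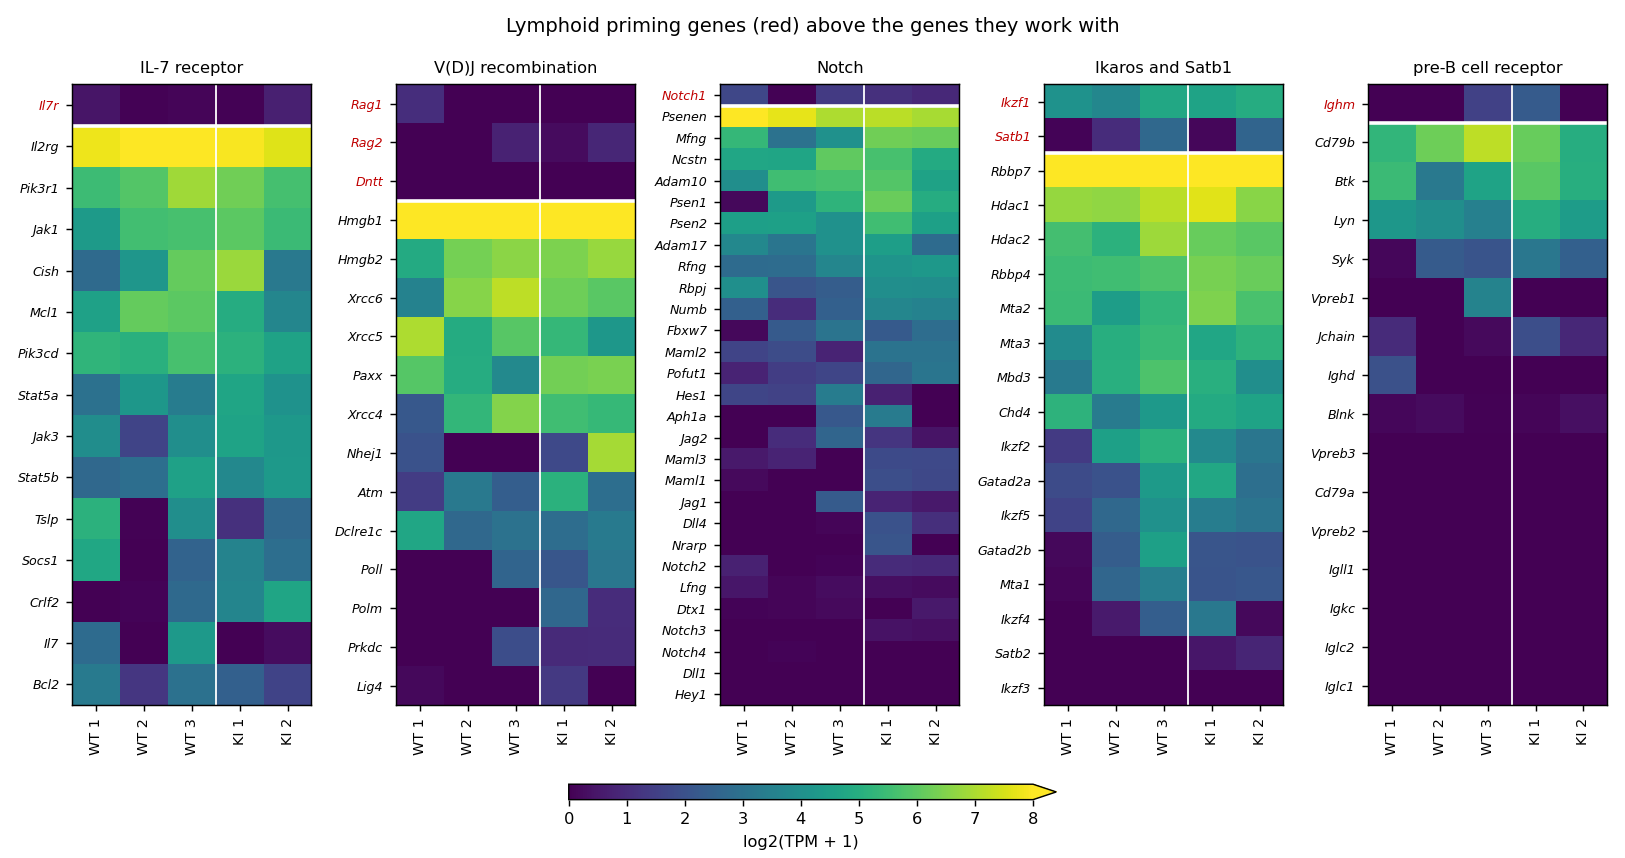
Heat maps of log2(TPM + 1) (colour, capped at 8) in wild-type (WT) and RankCre-ki (KI) libraries for members (red names, above the white line) and the listed genes they work with. Il2rg, Hmgb1, Psenen and Rbbp7 are bright in every library while Il7r, Rag1, Rag2, Dntt, Notch1 and Ighm above them stay dark.

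Transcription factors of the lymphoid path gave a mixed picture. Of 24 listed genes 13 reached 1 TPM in all libraries and 17 were tested, of which 0 passed. Spi1, which encodes PU.1 and acts in both myeloid and lymphoid fates, measured 84.0, 43.6 and 65.0 TPM in wild-type and 104 and 121 TPM in RankCre-ki HSCs. Mef2c, which favours lymphoid over myeloid output, measured 56.0, 61.4 and 56.3 TPM and 102 and 116 TPM, with no overlap, and Myb, needed by progenitors of many lineages, 44.0, 50.3 and 103 TPM and 88.3 and 58.7 TPM, with overlap. Zbtb7a (LRF), which restrains Notch-driven T fate in favour of B cells, was listed at 1.56, 4.51 and 5.04 TPM and at 20.4 and 62.5 TPM, a log2 difference of 3.07 ± 1.14 (SE; adjusted p = 0.587 in limma). Of the 17, 5 were higher in both RankCre-ki libraries and 2 lower (Foxo1 and Tcf12, named after their values were seen), against the same 18.8% and 3.71%, and the median was 0.10 below that of all genes (-0.10). Foxo1, which is known to activate Il7r and the Rag genes, measured 2.90, 1.52 and 3.79 TPM in wild-type and 1.34 and 0.0121 TPM in RankCre-ki HSCs. It was lowest in RankCre-ki replicate 2, where Il7r (0.645 TPM) and Rag2 (0.821 TPM) were highest, both under 1 TPM. That is 1 library, and a relation of these genes was not tested.

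Among surface proteins of lymphoid-primed and common lymphoid progenitors, 7 of 14 reached 1 TPM in every library. Cd27 ranged from 45.1 to 145 TPM and Cd34 from 40.2 to 149 TPM. Flt3, the receptor whose rise marks lymphoid-primed progenitors, measured 1.13, 3.61 and 8.54 TPM in wild-type and 10.4 in both RankCre-ki libraries. The RankCre-ki values of Flt3 were higher than all wild-type values (adjusted p = 0.946 in limma). This pattern held for 1 of the 9 tested genes of the list and for 18.8% of all tested genes. No gene of the list passed (smallest adjusted p = 0.887 in limma). In the Ly6 family and other small GPI-anchored proteins, to which Ly6d and Cd52 belong, Ly6e ranged from 157 to 1323 TPM and Ly6a, which encodes the sort marker Sca-1, from 47.7 to 185 TPM, while 3 of 14 genes were at 0 in all. Cd48, against which the cells were sorted, was listed at 0 in each wild-type library and reached 4.92 and 5.62 TPM in RankCre-ki HSCs (adjusted p = 0.521 in limma). No gene of this list passed (7 tested). Without RankCre-ki replicate 1, Cd48 alone of the list passed.

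Neighbouring priming programs give a scale. Of 10 granulocyte and monocyte priming genes 2 reached 1 TPM in every library (Prtn3, at 175 to 421 TPM, and Lyz2, at 103 to 311 TPM) and 4 were at 0 in all (Elane, Cebpa, Ctsg and Cebpe, named after their values were seen). Of 10 megakaryocyte and platelet priming genes 5 did so (among them Pf4, Cd9 and, named after their values were seen, Vwf and Gp9) and none was at 0 in all, with Pf4 at 38.4 to 147 TPM and Cd9 at 134 to 248 TPM. For the lymphoid genes these counts were 1 and 2. Of the 16587 protein-coding genes with a promoter window, 26.9% reached 1 TPM in every library and 19.7% were at 0 in all. The lists were chosen by name, and their difference was not tested.

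Markers of mature cells were read beside the sparse members. For B cells, Cd79a was at 0 in all libraries and Ms4a1 was at most 0.299 TPM. Bank1 reached 32.4 TPM (wild-type replicate 3) and 6.41 TPM (RankCre-ki replicate 2), and Cr2 reached 15.9 TPM (RankCre-ki replicate 2). Elsewhere neither exceeded 0.648 TPM. Fcer2a and Cd22, named after their values were seen, peaked at 3.80 TPM (wild-type replicate 3) and 2.58 TPM (RankCre-ki replicate 1). The summed level of 12 markers, mostly Cd79b, was 39.4 to 184 TPM in wild-type and 55.3 to 73.1 TPM in RankCre-ki libraries. For T cells, Cd3e (5.95 TPM), Cd3g (0.435 TPM) and Trac (1.21 TPM) were above 0 in RankCre-ki replicate 2 and at 0 elsewhere. Other T cell markers, named after their values were seen, ran otherwise: Cd3d was above 0 in every library (0.885 to 2.96 TPM), Cd28 was highest in wild-type replicate 1 (5.56 TPM), Cd8b1 was above 0 there alone (0.503 TPM) and Cd247 was highest in wild-type replicate 2 (16.1 TPM). The sum of 15 T cell markers was 69.7 to 115 TPM in wild-type and 70.1 to 85.2 TPM in RankCre-ki libraries, mostly Lat and Lck. For NK cells, Ncr1 was at 0 in all, the sum of 10 markers was 0.127 to 45.7 TPM in wild-type and 30.8 to 35.8 TPM in RankCre-ki libraries, mostly Nkg7 except in wild-type replicate 1, where Nkg7 was at 0, and Klrb1c, which encodes the lineage antigen NK1.1, was listed at 0.0516, 0 and 0 TPM in wild-type and at 4.40 and 12.8 TPM in RankCre-ki libraries. RankCre-ki replicate 2, with Cd3e, Cd3g and Trac above 0, had the highest Il7r and Rag2 and Cd52 at 25.6 TPM. Wild-type replicate 1, with Cd52 at 27.3 TPM, had Cd3e, Cd3g, Trac and Cd79a at 0, but Cd28 at 5.56 TPM and Cd3d at 2.24 TPM. Ighd of the pre-B cell receptor list, named after its values were seen, was at 2.94 TPM there and at 0 in the other libraries. The part of such cells in these values was not tested.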

How the data were processed

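HSC libraries from 5 samples (3 wild-type, 2 RankCre-ki) were grouped by title and genotype label. Per the study's methods poly(A) RNA was copied by oligo-dT priming with template switching, amplified, tagmented and sequenced. The deposited values are TPM per gene from the authors. The submitters' processing notes name bcl2fastq 2.20.0, featureCounts 2.0.1 and the build mm10, and the program that made the TPM is not given in the sources used here. The smallest positive TPM are far below what a whole fragment could give, so signal was shared among transcripts by estimation, and paralogs and overlapping genes are uncertain. TPM keep no depth, so no counting error can be given and an exact 0 is a listed value. After removal of 92 spike-in rows, all at 0, 55335 genes remained, of which 55154 matched GENCODE M21 (GRCm38).

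Tests covered the 13981 genes that reached 1 TPM in 2 libraries or more. They were run on log2(TPM + 1), pseudocount 1, with limma 3.58.1 (R 4.3.3; trend, two-sided, Benjamini-Hochberg over all genes tested), since a count model does not apply to TPM. Fold changes on this scale understate changes of low genes. As in the study, a call needed an adjusted p no higher than 0.1 and a log2 fold change beyond 2 in either direction. The limma step was tested on simulated data. The members, lists and alternatives were chosen with earlier results of these data known. All 10 members are named. Of each other list the text names genes among the 3 highest by mean TPM, the 3 with the smallest p among genes whose groups do not overlap, or the defining markers, and any other gene named is said to have been chosen after its values were seen. Promoter windows are RefSeq's on GRCm38.p6. Alternatives were another pseudocount, other filters, median-ratio scaling, quantile normalization, removal of mitochondrially encoded genes, no trend, blocks by replicate number or name series, and leaving out each library.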

Additional observations from a re-analysis of the deposited data

Results flagged for a closer look

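Satb1 moved in opposite directions within the name series. Within series 1 (1 RankCre-ki and 1 wild-type library) the RankCre-ki library was 2.53 higher on the log2(TPM + 1) scale. Within series 2 (1 RankCre-ki and 2 wild-type libraries) the difference was -1.74, below both wild-type libraries. The difference between the series was not tested, since each holds 1 RankCre-ki library.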

How the results depend on the processing

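No member passed the limits under any alternative, which covers the fits with another pseudocount or filter, both other scalings, both blocks and each library left out. Ikzf1 stayed above 0 throughout (log2 differences 0.12 to 0.90, smallest adjusted p = 0.748 in limma). The count of all genes past the limits, 0 in the reported fit, was 1 with the replicate block (Gm28437) and 0 to 304 with single libraries left out: 1 without wild-type replicate 1 (Gm15920) and 304 without RankCre-ki replicate 1, where the Ly6 and small GPI list went from 0 to 1 (range 0 to 1 over the libraries left out). With a RankCre-ki library left out, the lone library is assumed to vary like the others. Directions turned for members that were not called. Cd52 was -0.045 with the replicate block, -0.038 with name series as a block and -0.089 within series 1, and -1.61 to 3.13 with libraries left out. Satb1 was -0.061 under median-ratio scaling, -0.73 under quantile normalization, -1.74 within series 2 and -1.14 to 1.32 with libraries left out. Notch1 was 0.44 with a pseudocount of 0.1, 0.13 with the replicate block, 0.39 within series 2 and up to 0.30 with libraries left out. Ighm was -0.52 to 1.77 with libraries left out, the lowest without RankCre-ki replicate 1. The cause was not tested. The replicate numbers share only a number: deviations of same-numbered libraries correlated at -0.380 and -0.195.

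Chosen after seeing the data, other settings put the name series difference of Cd52 at 4.73 to 8.06 and the genes called between the series, 658 as reported, at 16 under median-ratio scaling, 280 under quantile normalization and 0 to 787 with libraries left out (46 without wild-type replicate 2, 50 without wild-type replicate 3, 0 without RankCre-ki replicate 1). Of genes with an unadjusted p under 0.05, 92.3% were higher in RankCre-ki libraries, against 65.9% under median-ratio scaling and 69.0% under quantile normalization. TPM without depth limit what can be said of members under 1 TPM.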

Other observations

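Antigen receptor variable segments, which the recombinase joins, were patchy. The summed level of 185 immunoglobulin heavy chain V genes was 40.4, 0.520 and 0 TPM in wild-type and 0 and 143 TPM in RankCre-ki libraries, and that of 160 kappa V genes 61.2, 0 and 20.7 TPM and 0 and 137 TPM. Of these 21 heavy chain and 21 kappa genes were above 0 anywhere. The heavy chain sum was high in the 2 libraries of name series 1. Ighm was listed at 0 in both of these and in wild-type replicate 2. T cell receptor V genes had another order, with beta chain sums of 0.386, 150 and 22.6 TPM in wild-type and 7.55 and 56.5 TPM in RankCre-ki libraries, and alpha chain sums of 7.44, 35.4 and 0 TPM and 4.25 and 42.7 TPM. The 4 heavy chain J and 5 kappa J segments were at 0 in all libraries. V genes are multigene families whose members can share reads.

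Markers of other cell types had low counts of tested genes, and none passed the limits in limma. Of 10 dendritic cell markers 2 were tested (Bst2 and Flt3), and Siglech, not tested, was listed at 0.292, 0 and 0 TPM in wild-type and 0.286 and 4.18 TPM in RankCre-ki libraries. Of 14 myeloid markers 5 were tested, with S100a8 at 0.0677, 0 and 0 TPM and 8.31 and 12.9 TPM, and Lyz2 at 228, 268 and 249.5 TPM and 311 and 103 TPM. S100a9, named after its values were seen, had 2.17 TPM in wild-type replicate 1 and was at 0 in the other 4 libraries. Of 11 measured erythroid markers 9 were tested, and 1 was higher in both RankCre-ki libraries. This was Hbb-bt, at 36.2, 124 and 109 TPM and 251 and 632 TPM. Car2 overlapped, at 788, 1101 and 1753 TPM and 1739 and 1336 TPM. Car1 was listed at 20.7, 0 and 0 TPM and at 0 and 674 TPM. Of 22 HSC genes all were tested, and 6 were higher in both RankCre-ki libraries (18.8% of all tested genes were), among them Gata2 at 16.4, 8.93 and 36.4 TPM and 106 and 102 TPM.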
